A study of Mus musculus with 6 samples.

Results

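The transcripts of 7 GABA-A receptor subunits were examined in mouse dorsal striatum on postnatal day 21. The genes were Gabra2, Gabra3, Gabra4, Gabra5, Gabrb1, Gabrb2 and Gabrd. They were chosen by gene name, and all 7 had a row among the 23067 genes of the deposited table. Wild-type mice (Lrrk2WT/WT) were compared with mice homozygous for a knock-in of the G2019S change in Lrrk2 (Lrrk2G2019S/G2019S), the gene of a large kinase. This change is a known cause of inherited Parkinson's disease. Each genotype had 3 libraries of total RNA, no treatment was named for either, and the strain was not given in the sources used here. The labels do not say whether each sample was a separate animal. The p-values then rest on sample-to-sample spread alone, part of which may be technical.

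GABA-A receptors are pentameric chloride channels opened by the inhibitory transmitter GABA. Most receptors combine alpha and beta subunits with either a gamma subunit, typical of synapses, or the delta subunit, typical of receptors outside synapses that carry a lasting, tonic current. Most striatal neurons release GABA themselves, and the projection neurons that make up most of them carry such currents. The alpha4 and delta subunits are known to assemble together, and the alpha5 subunit also serves tonic inhibition.

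Values are FPKM, levels scaled for transcript length and library size. The 6 libraries summed to 314146 to 335508 FPKM, and their read depth is unknown. Defining genes of striatal projection neurons were high in every library, with Ppp1r1b at 750 to 835 FPKM and Penk at 1024 to 1157 FPKM. Lrrk2, whose transcript a point change leaves in place, lay at 10.9 to 12.4 FPKM, so it does not check the labels. All samples are titled male, yet Xist, the RNA of the inactive X chromosome, lay at 27.2 to 39.3 FPKM in all 6, so this mismatch with the titles does not separate the genotypes. In bulk tissue, fewer cells of a type and less RNA per cell cannot be told apart.

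The 7 genes lie on 5 chromosomes, with positions given on GRCm38 from GENCODE M21. On chromosome 5, Gabra2 (70957597 to 71095849, minus strand) and Gabra4 (71569749 to 71658308, minus strand) lie beside Gabrb1 (71658113 to 72149037, plus strand). Gabra5 lies on chromosome 7 (57407672 to 57510059, minus strand), Gabrb2 on chromosome 11 (42419757 to 42629028, plus strand), Gabra3 on the X chromosome (72432681 to 72656848, minus strand) and Gabrd on chromosome 4 (155384980 to 155398112, minus strand). Gabra4 and Gabrb1 stand head to head, and their gene spans overlap by 196 bases, of which 46 are exonic in both. Gabra5 shares 148 exon bases with Gm9962 on the other strand. Whether the authors' counting used strand is not given in the sources used here, so reads from these short overlaps may be assigned to either gene.

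RefSeq start-site windows (GRCm38.p6, 250 bases before to 50 after a start) were found for 6 of the 7 genes, all but Gabrd. Those of Gabra2, Gabra4 and Gabrb2 are shown because the first 2 genes had their highest level in the same library and the third had its lowest level in another, as described below. Gabrb2 also had its highest level in the library where Gabra2 and Gabra4 did. Gabrb1, which is not shown, was highest and lowest in the same libraries as Gabrb2. The stretches hold only bases before the start that lie in no annotated untranslated region, on the strand of the gene. Capitals mark GGGCGG, the GC box, and TATAAA, the TATA box, on either strand. The Gabra2 stretch is chr5:71095850-71096099, the Gabra4 stretch chr5:71658364-71658558 and the Gabrb2 stretch chr11:42420190-42420439.
Gabra2: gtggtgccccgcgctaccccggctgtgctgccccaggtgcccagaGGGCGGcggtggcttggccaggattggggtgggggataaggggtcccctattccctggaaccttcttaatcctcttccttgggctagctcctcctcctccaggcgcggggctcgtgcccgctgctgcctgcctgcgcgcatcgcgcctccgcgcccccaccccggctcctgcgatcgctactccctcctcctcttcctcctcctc
Gabra4: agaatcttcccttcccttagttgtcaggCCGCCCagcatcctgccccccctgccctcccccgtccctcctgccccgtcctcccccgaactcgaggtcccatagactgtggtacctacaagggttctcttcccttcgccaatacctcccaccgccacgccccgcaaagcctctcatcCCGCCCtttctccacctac
Gabrb2: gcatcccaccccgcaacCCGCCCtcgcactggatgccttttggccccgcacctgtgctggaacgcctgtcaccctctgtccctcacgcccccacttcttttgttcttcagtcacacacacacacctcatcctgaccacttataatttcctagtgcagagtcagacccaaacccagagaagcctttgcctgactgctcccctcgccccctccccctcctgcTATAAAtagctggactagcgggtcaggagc
The GC box was present in 35.7% and the TATA box in 13.6% of all 32851 windows, as a background for these matches. In the Gabrb2 window, the first of 3 for that gene, the TATA box began at position -30 and a GC box at -233, counted back from the start. The Gabra4 window held GC boxes at -222 and -74. In the Gabra2 window a GC box began at -205, and another lay past the start and is not printed. The CpG pair occurred 25 times in the Gabra2 window, 12 times in that of Gabra4 and 11 times in that of Gabrb2, against a median of 7 over all windows. The 2 windows of Gabra3, the X-linked gene, held 0 CpG pairs. GCGTGGGCG, the EGR site, and TGACGTCA, the cAMP response element, were also searched on both strands. They were in 0.612% and 1.79% of all windows and had 0 matches in those of the 6 genes.

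Gabrd, the delta subunit, was by far the most abundant of the 7 transcripts. It stood at 61.9, 57.9 and 55.8 FPKM in wild type replicates 1 to 3. In knock-in replicates 1 to 3 it stood at 58.1, 63.0 and 61.0 FPKM. Its mean ranked above 95.3% of the genes tested. The groups overlapped, with 1 of 3 knock-in libraries above all wild-type libraries. Its spread over the 6 libraries, a coefficient of variation of 4.63%, was the smallest of the 7 genes.

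Gabra4, the alpha subunit that partners delta, came second. It stood at 17.5, 18.7 and 20.1 FPKM in the wild-type libraries, in the same order, and at 18.5, 18.2 and 26.0 FPKM in the knock-in libraries. The first 2 knock-in libraries lay within the wild-type range, and knock-in replicate 3 lay above it. Gabra2, an alpha subunit of many synaptic receptors, had the same shape at a lower level. It stood at 11.5, 11.3 and 11.6 FPKM in the wild-type libraries and at 11.6, 11.6 and 14.7 FPKM in the knock-in libraries. Of its 6 libraries, 5 lay within 11.3 to 11.6 FPKM and only knock-in replicate 3 stood apart.

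Gabra5, the other alpha subunit of tonic currents, stood at 8.12, 6.71 and 7.26 FPKM in the wild-type libraries and at 7.26, 9.19 and 8.45 FPKM in the knock-in libraries. Here knock-in replicates 2 and 3 lay above all wild-type libraries and knock-in replicate 1 within them. Gabra3, a further alpha subunit, whose receptors bind benzodiazepines, was at 6.13, 4.95 and 5.93 FPKM in the wild-type libraries and at 7.49, 6.80 and 5.28 FPKM in the knock-in libraries. For this gene knock-in replicates 1 and 2 were the high ones, and replicate 3 lay within the wild-type range, the reverse of Gabra2 and Gabra4.

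The beta subunits, which every typical receptor needs to reach the membrane, were low among the 7. Gabrb2 stood at 5.81, 6.94 and 6.64 FPKM in the wild-type libraries and at 7.32, 4.91 and 7.55 FPKM in the knock-in libraries, so that the knock-in libraries lay on both sides of the wild-type range. Gabrb1 stood at 4.57, 4.46 and 5.01 FPKM in the wild-type libraries and at 4.64, 4.45 and 5.12 FPKM in the knock-in libraries, nearly the same set of values. Although Gabra4 and Gabrb1 stand head to head, Gabra4 was at 19.8 FPKM and Gabrb1 at 4.71 FPKM over the 6 libraries.

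**Figure D1:**
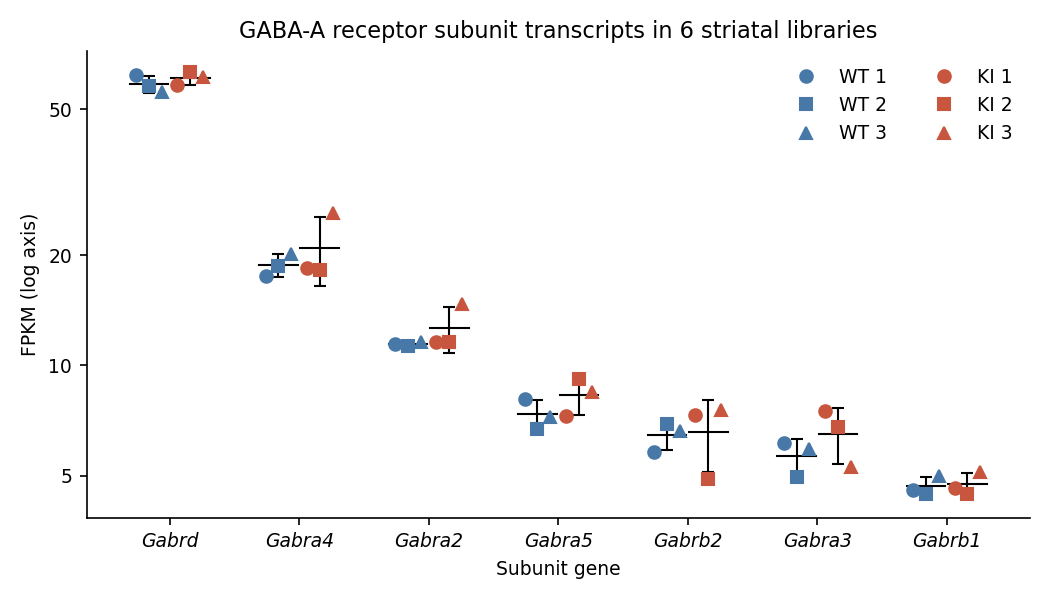
FPKM (log axis) of the 7 subunit genes in 3 wild-type (WT, blue) and 3 knock-in (KI, red) libraries; horizontal lines are group means and error bars their SD (n = 3). Gabrd lies at 55.8 to 63.0 FPKM, and the high red triangle of Gabra4 and Gabra2 is knock-in replicate 3.

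The order of mean levels over the 6 libraries was Gabrd, Gabra4, Gabra2, Gabra5, Gabrb2, Gabra3 and Gabrb1. The ranges of Gabrd, Gabra4, Gabra2 and Gabra5 did not overlap one another, and each of these genes exceeded the next in 6 of 6 libraries. Gabrd was at 3.00 times Gabra4, Gabra4 at 1.65 times Gabra2 and Gabra2 at 1.54 times Gabra5. The lower part of the order was not resolved. Gabra5 exceeded Gabrb2 in 4 of 6 libraries and Gabrb2 exceeded Gabra3 in 3 of 6. Gabra3 exceeded Gabrb1 in 6 of 6 libraries, though their ranges overlapped. These are levels per length, and the annotated transcripts differ in length, from 2671 bases for the longest of Gabra5 to 13737 for that of Gabrb1.

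Other subunits place the 7 genes in the family. Of the 12 other GABA-A and GABA-rho subunits looked up, 8 had a row. The gamma subunits Gabrg3 and Gabrg1 were at 4.31 and 1.58 FPKM over the 6 libraries, both below Gabrb1 in mean level. Gabre, Gabrq and Gabrr2 were at 0.0971, 0.174 and 0.152 FPKM.

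The comparison of genotypes asked whether this balance of subunits differs in Lrrk2 G2019S striatum. No difference in any of the 7 transcripts was detected. Genes were tested with limma on log2(FPKM + 1) over the 14156 genes whose mean reached 1 FPKM, a filter that 7 of 7 passed, and a gene was called at a Benjamini-Hochberg adjusted p under 0.05. Of the 7 genes 0 were called in either direction, where 3 genes, 0.0212% of those tested, were called in all. Over all genes that count was 8 without wild type replicate 2, and 11, 15 and 6 without knock-in replicates 1, 2 and 3. At an unadjusted p under 0.05, 0 of the 7 passed, against 604 genes or 4.27% of those tested. The genotypes overlapped for 7 of 7 genes, and were apart for 9.51% of all genes tested. The adjusted p in limma was 0.997 for 6 of the genes and 0.998 for Gabrb2.

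Every one of the 7 genes had a mean difference above 0, as did 43.6% of genes tested. The median over the 7 was 0.12, against -0.01 over all genes tested. Gabra3 differed most, with a log2 difference of 0.17 (SE 0.12) and a 95% interval of the fold in FPKM + 1 from 0.918 to 1.37. The intervals that follow are also folds of FPKM + 1. Gabra5 differed by 0.15 (SE 0.10), with an interval from 0.948 to 1.30. For Gabra4 the value was 0.13 (SE 0.14) and the interval 0.877 to 1.37, and for Gabra2 it was 0.12 (SE 0.09) and the interval 0.935 to 1.27. Gabrd differed by 0.05 (SE 0.07), and its interval from 0.933 to 1.15 was among the narrowest. Gabrb1 differed by 0.01 (SE 0.07), with an interval from 0.899 to 1.14. Gabrb2, at 0.01 (SE 0.15), had an interval from 0.791 to 1.28, the widest of the 7 on the log2 scale.

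The mean differences of Gabra2 and Gabra4 rested on knock-in replicate 3. Without it the log2 difference of Gabra2 was 0.02 and that of Gabra4 turned to -0.03, while that of Gabra3 was 0.29 (unadjusted p = 0.0215, adjusted p = 0.778 in limma). Gabrb1 turned to -0.03 and Gabrb2 to -0.09 without the same library, and Gabra5 and Gabrd stayed at 0.14 and 0.05. Direction also turned for Gabrb2 without wild type replicate 1 (-0.06) or knock-in replicate 1 (-0.07), and for Gabrb1 without wild type replicate 2 (-0.01). Gabra5 ranged from 0.08 without knock-in replicate 2 to 0.23 without knock-in replicate 1 (unadjusted p = 0.0416, adjusted p = 0.979 in limma), and was 0.09 without wild type replicate 2. Gabra3 was as low as 0.07 without knock-in replicate 1 and 0.09 without wild type replicate 2. Gabrd ranged from 0.02 without wild type replicate 3 to 0.09 without wild type replicate 1. Gabra2, Gabra3, Gabra5 and Gabrd kept a difference above 0 in each of the 6 fits with 1 library left out.

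**Figure D2:**
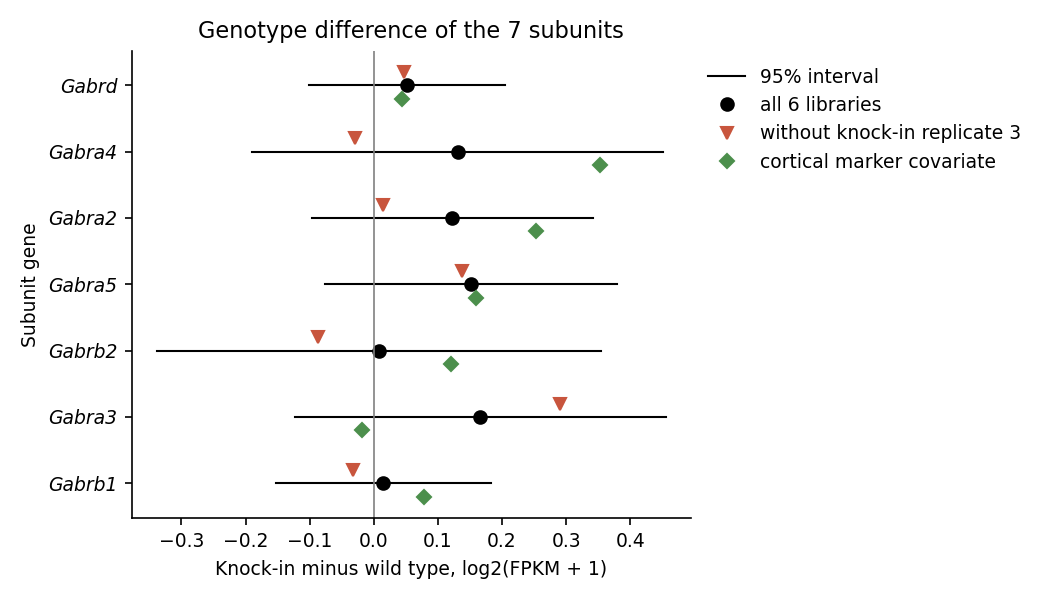
Knock-in minus wild-type difference on the log2(FPKM + 1) scale for the 7 subunits with its 95% interval (black), without knock-in replicate 3 (red) and after adding the level of cortical genes to the fit (green). All 7 intervals include 0, and Gabra2 and Gabra4 move towards 0 without knock-in replicate 3, to 0.02 and -0.03.

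Knock-in replicate 3 lay above the wild-type mean for 6 of the 7 genes, the exception being Gabra3, with a median deviation of 0.18 on the log2 scale. The median deviation of all genes tested in that library was -0.04. It was the highest of the 6 libraries for 4 of the 7 (Gabra2, Gabra4, Gabrb1 and Gabrb2) and the lowest for 0. Over all genes tested it was the highest for 17.6% and the lowest for 32.0%. Gabra4 deviated by 0.45, Gabra2 by 0.34, Gabrb2 by 0.20 and Gabra5 by 0.18 there. The deviation of Gabra4 exceeded that of 98.5% of genes tested in that library, and that of Gabra2 97.4%.

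Knock-in replicate 2 deviated the other way for Gabrb2, by -0.33, a value that exceeded only 2.56% of genes tested in that library. Gabrb1 deviated by -0.06. Gabra5 was highest in this library, 0.29 above the wild-type mean, and so was Gabrd, by 0.11. In knock-in replicate 1 the farthest of the 7 was Gabra3, at 0.35, above 97.4% of genes tested there.

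**Figure D3:**
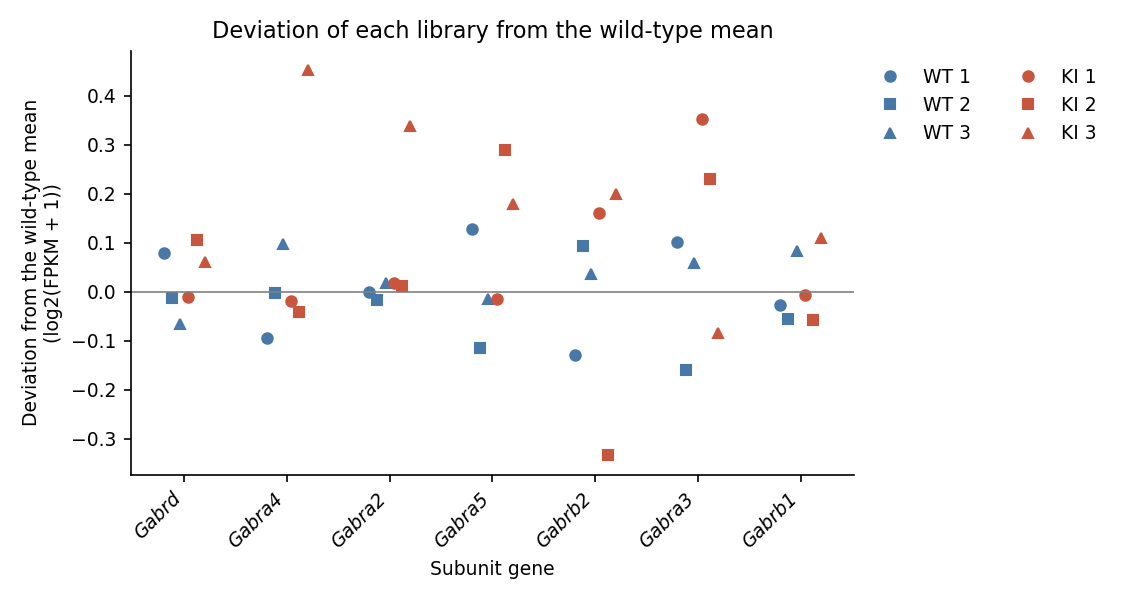
Deviation of each library from the wild-type mean, in log2(FPKM + 1), for the 7 subunit genes; blue symbols are wild-type and red symbols knock-in libraries, with shapes for replicates 1 (circle), 2 (square) and 3 (triangle). Red triangles lie above 0 for 6 of 7 genes, and the red square of Gabrb2 lies at -0.33.

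Several measures moved with these libraries. In knock-in replicate 3 the summed level of 14 striatal projection neuron genes was 3430 FPKM. The wild-type libraries lay at 3122 to 3238 FPKM and the other knock-in libraries at 3109 and 3261 FPKM. None of the 14 was at 0, and Drd1, the D1 dopamine receptor, was at 92.6 FPKM against 73.6 to 81.2 FPKM elsewhere. Not all of the list followed Drd1. Ppp1r1b, Pdyn, Foxp1 and Adcy5 kept within their wild-type ranges in knock-in replicate 3, with Ppp1r1b at 774 FPKM inside a range of 760 to 835 FPKM. The rest of the list was, like Drd1, highest in knock-in replicate 3. Myelinating oligodendrocyte genes (10 of 10 measured) summed to 2579 FPKM in that library. Their sum was 3187 to 3627 FPKM in the wild-type libraries and 3026 and 3189 FPKM in the other knock-in libraries. Astrocyte genes (10 of 10 measured) summed to 636 FPKM in knock-in replicate 3 and to 692 to 724 FPKM in the other 5 libraries. Transcript length also moved with the libraries. For 739 tested genes with a longest transcript of over 8000 bases the median deviation was -0.11 in knock-in replicate 2 and 0.03 in knock-in replicate 3, and for 1879 genes of up to 1000 bases it was 0.11 and -0.08. In the class from 4000 to 6000 bases, which holds Gabra2 and Gabra4, the medians were -0.03 and -0.02. The part of these measures in the subunit levels was not tested.

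For Gabra3 a different measure was set beside the levels. The summed level of 11 cortical excitatory neuron genes, of 12 looked up, was 60.9 and 48.8 FPKM in knock-in replicates 1 and 2 and 12.9 FPKM in replicate 3. In wild type replicates 1 to 3 it was 26.9, 14.2 and 12.7 FPKM. None of the 11 was at 0, and 7 passed the filter. Slc17a7, which loads glutamate into cortical synaptic vesicles, ranged from 2.73 to 29.9 FPKM, and Tbr1 from 0.136 to 2.37 FPKM. Not all of the list followed them. Rorb ranged only from 0.978 to 1.11 FPKM, and Cux2 was at 2.48 FPKM in wild type replicate 2 and 2.44 FPKM in knock-in replicate 2. The 3 libraries with the highest cortical sum were also the 3 highest in Gabra3, in the same order. In the remaining libraries the order was reversed. Gabra3 was at 4.95 FPKM in wild type replicate 2, 5.28 FPKM in knock-in replicate 3 and 5.93 FPKM in wild type replicate 3. With the mean log2 level of these genes as a covariate in limma, the Gabra3 difference was -0.02 (adjusted p = 0.963). In the same fit that of Gabra4 was 0.35 (unadjusted p = 0.00264, adjusted p = 0.371) and that of Gabra2 0.25 (unadjusted p = 0.0125, adjusted p = 0.410), and 0 of 7 were called. Over all 14156 genes 3 were called in this fit. The share of all genes at an unadjusted p under 0.05 was not worked out for it, so these 2 unadjusted values have no background. Gabrb1 and Gabrb2 stood at 0.08 and 0.12, and Gabra5 and Gabrd at 0.16 and 0.04. The level of cortical genes follows genotype in part, as 2 of the 3 knock-in libraries are high, so this fit rests on few libraries. The part of cortical genes in the subunit levels was not tested.

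**Figure D4:**
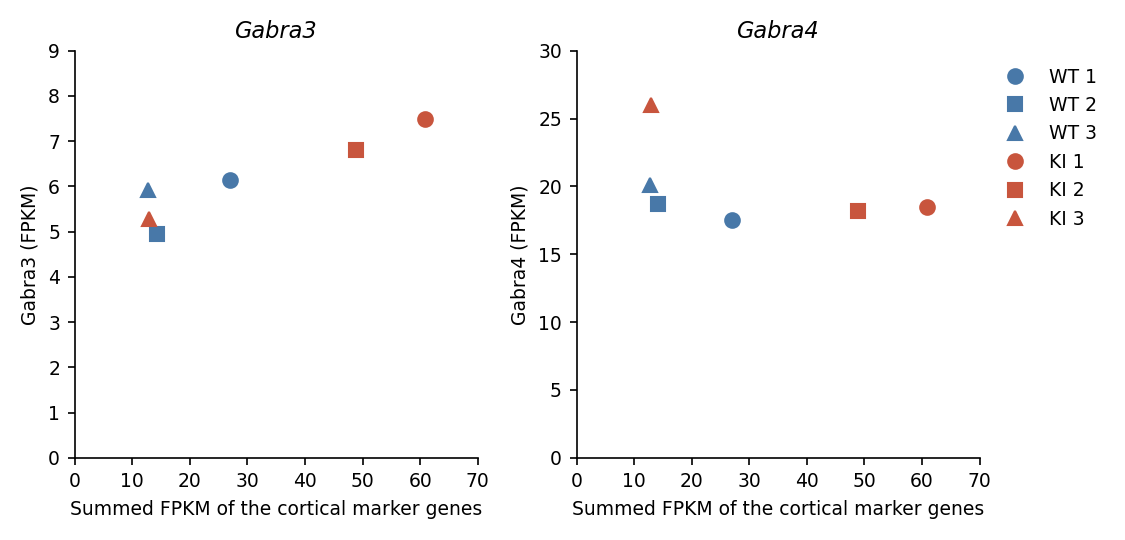
Gabra3 (left) and Gabra4 (right) in FPKM against the summed FPKM of 11 cortical marker genes, 1 point per library. The 3 libraries with the highest cortical sum, from 26.9 to 60.9 FPKM, are the 3 highest in Gabra3, while Gabra4 is highest in knock-in replicate 3, at a sum of 12.9 FPKM. The remaining libraries have the reverse order in Gabra3.

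Lists for other regions and cells were summed in the same way. Thalamic genes (7 of 7 with a row, 4 past the filter) summed to 34.3 to 36.0 FPKM over the wild-type libraries and 35.6 to 36.4 FPKM over the knock-in libraries. Most of each sum was Pdp1, at 23.7 to 28.4 FPKM, so the sum says little about the rest of the list. Slc17a6 was at 0.688 FPKM in knock-in replicate 1 and at 0.0751 to 0.289 FPKM in the others. Pallidal genes (6 of 6) summed to 20.3 to 23.0 and 20.9 to 21.9 FPKM. Interneuron genes (12 of 12 with a row) summed to 388 to 476 and 390 to 492 FPKM. Microglia genes (8 of 8) summed to 314 to 330 and 298 to 329 FPKM, endothelial and mural genes (9 of 9) to 167 to 176 and 154 to 180 FPKM, and precursors of oligodendrocytes (8 of 8) to 228 to 254 and 180 to 245 FPKM. The ependymal and choroid plexus list (8 of 8) ranged from 39.3 to 401 FPKM over the wild-type libraries and from 19.5 to 36.7 FPKM over the knock-in libraries. All 3 knock-in libraries lay below all 3 wild-type ones, with or without wild type replicate 2, where Ttr was at 374 FPKM. Of its 6 tested genes 6 were lower in knock-in, with a median log2 difference of -0.40, 4 at an unadjusted p under 0.05 and 0 called in limma. Of the 10 myelinating oligodendrocyte genes 9 were lower, with a median of -0.25, 4 at an unadjusted p under 0.05 and 0 called. Of all 14156 genes tested 7987 were lower in knock-in and 4.27% had an unadjusted p under 0.05 in limma. The genotypes were apart for 9.51% of them. The part of these lists in the subunit levels was not tested. Without wild type replicate 2 the differences of the 7 subunits lay between -0.01 and 0.13.

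Shares within a library remove its overall scaling. The 7 transcripts together summed to 113 ± 2.28 FPKM and 120.4 ± 6.94 FPKM (SD, n = 3 each) in the wild-type and knock-in libraries. Gabrd made up 51.8% ± 1.98 of that sum in wild type and 50.5% ± 2.86 in knock-in, and Gabra4 16.6% ± 1.38 and 17.3% ± 2.65. Gabra2 made up 10.2% ± 0.207 and 10.5% ± 0.908, Gabra5 6.51% ± 0.498 and 6.90% ± 0.780, and Gabrb2 5.73% ± 0.631 and 5.47% ± 1.17. The shares of Gabra3 were 5.02% ± 0.480 and 5.46% ± 1.23, and those of Gabrb1 4.14% ± 0.271 and 3.94% ± 0.145. The mean share of each of the 7 genes differed between genotypes by less than the larger of the 2 SDs. The knock-in SD exceeded the wild-type SD for 6 of 7 genes, Gabrb1 being the exception, with only 3 libraries behind each value.

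**Figure D5:**
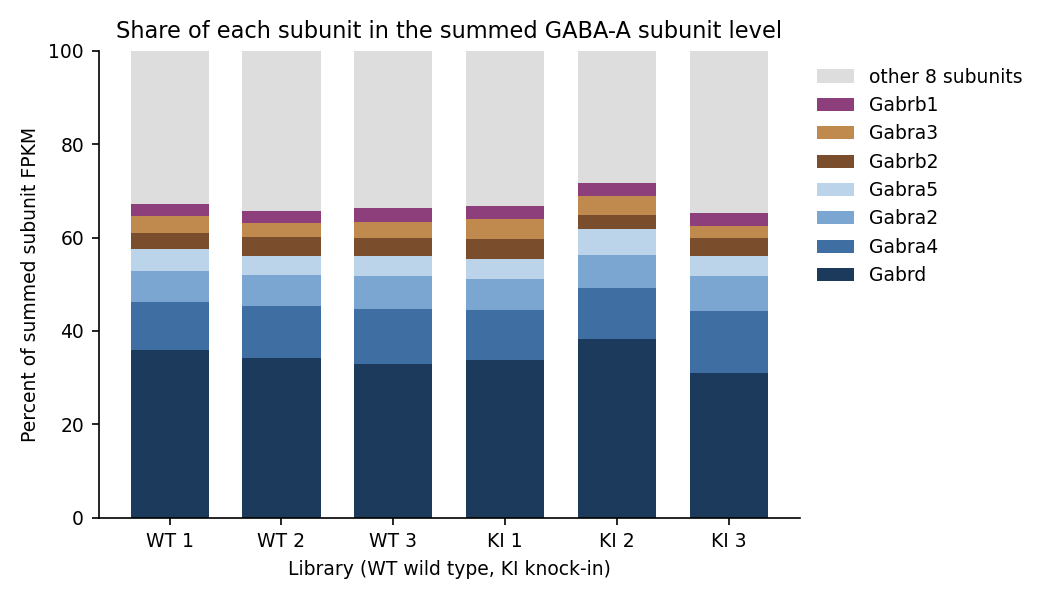
Share of each subunit, in percent, of the summed FPKM of 15 measured GABA-A and GABA-rho subunits in each library (WT wild type, KI knock-in); the grey part is the other 8 subunits. Gabrd takes 31.0% to 38.2% of the sum, with its extremes in knock-in replicates 3 and 2.

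Within the alpha subunits the balance was tested by ratio. Among the 4 alpha transcripts Gabra4 made up 43.4% ± 2.50 in wild type and 42.9% ± 4.25 in knock-in, and Gabra2 26.5% ± 0.641 and 26.1% ± 0.904 (SD, n = 3 each). The ratio of Gabra2 to Gabra4 was the steadiest, at 0.655, 0.605 and 0.577 in wild type and 0.628, 0.635 and 0.567 in knock-in. In knock-in replicate 3, where both genes were high, it was the lowest of the 6 by a small margin. The ratio of Gabra3 to Gabra4 varied most, at 0.350, 0.265 and 0.295 in wild type and 0.405, 0.374 and 0.203 in knock-in. In knock-in the third library had the lowest Gabra3 to Gabra4 ratio of the 6, and the other two had the highest.

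The pairing of delta with alpha4 was examined in the same way. The ratio of Gabrd to Gabra4 was 3.53, 3.09 and 2.77 in wild type and 3.14, 3.46 and 2.35 in knock-in, with geometric means of 3.12 and 2.94. Knock-in replicate 3 was the lowest of the 6; Gabra4 was high there and Gabrd was not. The ratio of Gabrb1 to Gabrb2 was 0.786, 0.642 and 0.754 in wild type and 0.634, 0.907 and 0.678 in knock-in. For the 8 ratios, 6 among the alpha subunits and these 2, the genotype difference lay between -0.08 and 0.06 on the log2 scale, and the genotypes overlapped in each. Exact two-sided permutation tests gave p between 0.7 and 1, and 1 for all 8 after Benjamini-Hochberg adjustment. With 3 libraries against 3 the smallest p such a test can give is 0.1, so a p under 0.05 could not be reached.

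Over the 6 libraries, 21 pairs of the 7 genes were compared by correlation of log2(FPKM + 1). Gabra5 and Gabrd gave Pearson's r = 0.86 (exact permutation p = 0.0403, 0.255 adjusted over the 21 pairs) and Spearman's rho = 0.89 (exact permutation p = 0.0333, 0.572 adjusted). Without the 2 libraries farthest from the median of Gabra5 r was 0.89. Gabra2 and Gabra4 gave r = 0.95 (exact permutation p = 0.0486, 0.255 adjusted) and rho = 0.54 (exact permutation p = 0.297, 0.678 adjusted). Without the 2 farthest libraries r was 0.76, and without knock-in replicate 3 alone it was 0.31, so this relation rests on that library. No pair passed the adjustment, where the lowest adjusted p was 0.219, for Gabra2 with Gabrb1 and Gabra4 with Gabrb1. The points share their libraries and the library scaling of FPKM.

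The genes most like each subunit were named by Pearson's r over the same 6 libraries, as a description. They were taken from the genes tested, leaving out predicted gene models (names of the Gm and Rik forms). For Gabra3 they were Lingo1 (r = 0.99), at 8.27 to 14.8 FPKM, and Vsnl1 (r = 0.99), at 23.0 to 46.7 FPKM. Both were highest in knock-in replicate 1, as Gabra3 was, and r was 0.99 for both also without knock-in replicate 3. For Gabra4 they were Mtpn and Orc4 (r = 1.00 each, 0.96 each without knock-in replicate 3). Gabra2 was most like Pcdhga2 and Stx6 (r = 0.99 each), and without knock-in replicate 3 these values were 0.0043 and -0.06. Pcdhga2 was at 63.6 FPKM in that library and at 1.60 to 2.23 FPKM in the others, so its likeness to Gabra2 was set by 1 library. For Gabra5 they were Fastk and Lancl1 (r = 0.99 each), for Gabrb1 Stx3 and Olfm3 (r = 0.99 each), for Gabrb2 Unc80 (r = 0.98) and for Gabrd Pomk (r = 0.99) and Supt4a (r = 0.98). These genes were among the closest of the 14156 tested, predicted gene models left out, over only 6 libraries, which share their depth and scaling.

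Gabrg3 and Gabrg1 were not called either. Gabrg3 stood at 4.46 ± 0.399 FPKM in the wild-type libraries and at 4.16 ± 0.609 FPKM in the knock-in libraries (SD, n = 3 each), and Gabrg1 at 1.56 ± 0.180 and 1.61 ± 0.104 FPKM. The adjusted p in limma was 0.997 for both.

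Genes that assemble, move and anchor the receptors were taken from a list of 28, of which 25 had a row and were tested. None was called in either direction, 6 were higher and 19 lower, and their median log2 difference was -0.04 against -0.01 over all genes tested. Lhfpl3, a relative of the auxiliary subunit Lhfpl4, stood at 7.54 ± 0.501 and 6.75 ± 0.278 FPKM, and Rdx, which encodes the alpha5 anchor radixin, at 18.3 ± 0.220 and 16.8 ± 1.10 FPKM (SD, n = 3 each). In both genes all 3 knock-in libraries lay below all wild-type ones, with an adjusted p of 0.997 in limma. Both were named because they had the smallest p of the list in limma, which favors groups that lie apart. The genotypes were apart for 9.51% of all genes tested. Hap1, an adaptor in receptor transport, stood at 15.6 ± 2.49 and 13.5 ± 0.674 FPKM. Gphn, the gephyrin scaffold of inhibitory synapses, stood between 20.9 and 23.8 FPKM in the 6 libraries, and Nlgn2, the adhesion protein of the same synapses, between 37.9 and 40.0 FPKM; these 2 were named for their role.

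The list of GABA synthesis, transport and chloride handling held 9 genes, of which 2 were higher, 7 lower and 0 called, with a median of -0.06. Slc12a5, the chloride exporter KCC2, was at 37.4 ± 2.14 FPKM in the wild-type libraries and 35.4 ± 1.76 FPKM in the knock-in libraries, and Slc6a13 at 1.64 ± 0.140 and 1.42 ± 0.227 FPKM (SD, n = 3 each). For GABA-B receptors and their partners 3 of 5 genes were higher, 2 lower and 0 called, with a median of 0.0026. Kctd12, an auxiliary subunit of that receptor, stood at 14.5 ± 0.718 and 12.9 ± 0.599 FPKM, with all 3 knock-in libraries below the wild-type ones (unadjusted p = 0.0391, adjusted p = 0.997 in limma). It was named for the smallest p of its list. Of all genes tested 9.51% had the genotypes apart and 4.27% an unadjusted p under 0.05 in limma. Gabbr2 stood at 11.2 ± 0.225 and 12.4 ± 1.68 FPKM, and Kctd16 at 3.50 ± 0.364 and 3.63 ± 0.240 FPKM. Of 7 genes of benzodiazepine-site ligands and neurosteroid synthesis 5 were tested, 2 higher, 3 lower and 0 called, with a median of -0.05. Srd5a1, a reductase of neurosteroid synthesis, stood at 11.0 ± 0.545 and 9.76 ± 1.58 FPKM, Dbi, the diazepam binding inhibitor, at 70.4 ± 5.72 and 65.6 ± 9.79 FPKM, and Cyp11a1 at 0.981 ± 0.173 and 1.09 ± 0.149 FPKM.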

How the data were processed

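Dorsal striatum of 3 wild-type and 3 Lrrk2 G2019S knock-in samples at postnatal day 21 was profiled by RNA sequencing, 1 library each. The authors deposited 1 table of FPKM values, as its column names state. The submitters' processing notes list StringTie, HISAT2, SAMtools and FastQC without versions or roles. For genome build, annotation and strand setting the answer is not given in the sources used here. Columns were assigned by the sample codes in the labels, and 0 columns were left over. FPKM keeps no read counts. At the best step 38.1% to 41.9% of low values lay within 0.1 of a whole read, where an even spread gives 20%, so counts were not recovered and precision comes from the spread between libraries.

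Levels were put on the log2(FPKM + 1) scale, where changes of low genes look smaller than they are. The 14156 genes whose mean reached 1 FPKM were fitted with limma 3.58.1 in R 4.3.3 (trended prior, robust, two-sided, Benjamini-Hochberg over all genes tested). Ratios were compared by exact permutation tests. Gene lists are described by counts and medians. The members and lists were chosen with earlier results of these data known. Named genes are the 7 subunits, other subunits and up to 3 genes with the smallest p in each pathway list. Named too are the 2 most correlated genes of each subunit, predicted gene models left out. Gphn, Nlgn2, Ttr, Xist and the marker genes named fall outside this rule, and some genes it names are not reported here. Gene positions are from GENCODE M21, which matched 22972 of 23067 identifiers, and may differ from the authors' annotation. Scripts were tested on simulated data. Alternatives are given in the closing section. Replicate numbers shared by the genotypes were not used as pairs in the main fit, and whether they mark pairs is not known.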

Additional observations from a re-analysis of the deposited data

How the results depend on the processing

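Of the 7 subunits 0 were called in each of 15 alternative limma fits, with pseudocounts of 0.1 and 0.5, no filter, a minimum of 5 FPKM (which leaves out Gabrb1), quantile and median-of-ratios scaling, a constant prior, the replicate block, the cortical covariate and each library left out. Over all genes the count called was 3, and 3 to 15 with 1 library left out (8 on leaving out wild type replicate 2, and 11, 15 and 6 on leaving out knock-in replicates 1, 2 and 3). With the replicate block 2 genes were called. Deviations of same-numbered samples correlated at -0.01, -0.07 and 0.19, and those of differently numbered samples at -0.18 to 0.21. Of the knock-in samples 1 of 3 correlated best with its own number. So few values, taken from means of 3 libraries, cannot decide whether the numbers mark pairs. Of the subunit differences refitted, 97 kept their direction and 7 turned. Gabra3 turned with the cortical covariate (-0.019). Leaving out 1 library gave -0.030 to 0.22 for Gabra4, -0.032 to 0.056 for Gabrb1 and -0.087 to 0.18 for Gabrb2. Of the ratio differences, 37 kept their direction and 19 turned, each with 1 library left out, where the log2 difference ranged from -0.32 to 0.10 for Gabra2 to Gabra3, -0.046 to 0.048 for Gabra2 to Gabra4, -0.14 to 0.10 for Gabra2 to Gabra5, -0.13 to 0.37 for Gabra3 to Gabra4, -0.18 to 0.18 for Gabra3 to Gabra5, -0.19 to 0.13 for Gabra4 to Gabra5, -0.14 to 0.11 for Gabrb1 to Gabrb2, -0.20 to 0.080 for Gabrd to Gabra4. Shares of all 15 subunits in place of the 7 moved 14 of 14 shares, since the denominator is larger. The number of libraries, and unknown depth, limit what could be detected.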
